A study of Mus musculus with 12 samples.

Results

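The 22 genes described here were at or near 0 in spleen T cells after 24 h of co-culture and measurable after 48 h. They were chosen by level. Each had a mean below 0.1 CPM (counts per 1000000 counts of the library) in both groups at 24 h and a mean of 1 CPM or more in both groups at 48 h. Of 53762 gene symbols in the count table, 35432 were below the limit at 24 h in both groups, and 10779 of those had a count in some library. Only 32 also met the limit at 48 h. A further 10 of these were left out for their names, which marked predicted or clone-named genes, a histone and a granzyme, and 22 remained. The same rule turned round, below 0.1 CPM at 48 h and 1 CPM or more at 24 h, was met by 0 genes of any name. With the low limit raised to 0.2 CPM it was still met by 0 genes, against 102 in the direction silent at 24 h and on at 48 h. Because time chose the genes, their change over time is given as a description and was not tested.

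Mouse spleen T cells had been co-cultured with partner cells, named Res in the labels, which carried either a short hairpin RNA against Fabp7 (shFabp7), a fatty acid binding protein, or a control construct (ctrl). The 4 groups were T cells with the shFabp7 partner for 48 h, with the control partner for 48 h, with the shFabp7 partner for 24 h and with the control partner for 24 h, with 3 libraries in each. The hairpin acts in the partner cells, so the T cell libraries do not check it. The labels name no mouse strain. Nothing says that the 3 libraries of a group came from separate animals or cultures, so a p-value here speaks of the spread among these libraries alone, which may be technical. The libraries held 31952873 to 40638685 counts. All 12 T cell markers searched (Cd3e, Cd4, Cd8a, Lck and others) were above 0.1 CPM in every group, and their summed level was 3780 to 3794 CPM in shFabp7 libraries and 3787 to 3901 CPM in control libraries at 48 h, and 3858 to 4024 CPM with the shFabp7 partner and 4002 to 4068 CPM with the control partner at 24 h. These are CPM by library totals, and the TMM scaling of the later tests would lower the 48 h values against those at 24 h. Single markers moved over time on the same CPM. Of the 12, 3 (Cd3g, Cd4 and Thy1) were higher in all libraries at 48 h than in any at 24 h, and 6 were lower in all. Cd4 averaged 578 and 613 CPM at 48 h with the shFabp7 and the control partner, against 397 and 439 CPM at 24 h. Cd8a averaged 142 and 175 CPM at 48 h, against 312 and 338 CPM at 24 h. No member is on the list.

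T cells that have been stimulated grow, divide and change their metabolism over the first days, and many genes are switched on in that time. Many of the 22 genes are known from other tissues: neurons (Nptx1, Prph, Svop, Septin3), the glial sheath (Ermn), germ cells (Ybx2), muscle and fat (Slc2a4), or smooth muscle (Kcnmb1). A gene that is closed in a cell gives almost no reads, so counts of 0 to a few reads per library are the lower end of what this assay can show.

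Promoter windows from RefSeq on build GRCm38.p6, which run from 250 bases before to 50 bases after a gene's start, were available for 15 of the 22 genes (17 windows). The member windows had a median GC content of 62.7% and a median of 15 CG dinucleotides, against 60% and 19 in the windows of all tested genes and 52.7% and 7 in all 32851 windows. A GC-rich and a GC-poor window are shown first, with each CG in capitals. The window of Ybx2, at chr11:69935649-69935948 on the plus strand, is 78% GC and holds 40 CG. That of Dthd1, at chr5:62811406-62811705 on the plus strand, is 37% GC and holds 4.
Ybx2: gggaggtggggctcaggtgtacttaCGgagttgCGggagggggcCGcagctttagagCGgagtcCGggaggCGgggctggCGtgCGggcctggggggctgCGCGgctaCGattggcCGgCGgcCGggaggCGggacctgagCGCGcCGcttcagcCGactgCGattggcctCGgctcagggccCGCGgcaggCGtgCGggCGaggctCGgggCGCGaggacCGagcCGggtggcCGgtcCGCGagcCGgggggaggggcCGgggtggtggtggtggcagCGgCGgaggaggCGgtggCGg
Dthd1: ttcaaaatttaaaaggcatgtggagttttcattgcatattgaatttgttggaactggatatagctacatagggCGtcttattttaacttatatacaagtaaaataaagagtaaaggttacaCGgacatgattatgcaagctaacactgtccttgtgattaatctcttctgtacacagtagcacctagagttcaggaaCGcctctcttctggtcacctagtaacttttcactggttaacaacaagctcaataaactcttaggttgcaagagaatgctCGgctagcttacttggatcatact

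Both strands were searched for short motifs. The member numbers count genes with the motif in any of their windows, while the percentages are shares of windows. Counted as windows, each member number was the same, but out of 17. The activator protein 1 motif TGANTCA was found in 0 of the 15 genes and in 7.81% of all windows. The STAT motif TTCNNNGAA was found in 1 of 15 (Ccdc159) and in 8.3% of all windows, the NFAT core GGAAA in 9 of 15 and in 61.3%, and the E-box CACGTG in 1 of 15 (Wdr86) and in 7.15%. The TATA box letters TATAAA were found in 3 of 15, Prph and Ddit4l among them, and in 13.6% of all windows. Such matches are letters in a window and show no binding. The window of Prph, at chr15:99054924-99055223 on the plus strand, is shown because its TATAAA, in capitals, starts 31 bases before the gene's start.
Prph: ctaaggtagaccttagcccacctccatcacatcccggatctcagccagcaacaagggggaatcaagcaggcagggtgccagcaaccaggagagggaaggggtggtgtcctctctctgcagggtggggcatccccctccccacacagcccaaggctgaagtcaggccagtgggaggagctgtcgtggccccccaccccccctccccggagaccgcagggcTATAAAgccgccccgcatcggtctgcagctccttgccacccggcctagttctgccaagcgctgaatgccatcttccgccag

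Over all 22 genes, the summed level at 48 h was 52.0, 46.8 and 48.7 CPM in the 3 shFabp7 libraries and 49.9, 54.3 and 46.0 CPM in the 3 control libraries. At 24 h it was 0.653, 0.689 and 0.947 CPM in shFabp7 libraries and 0.795, 0.958 and 1.23 CPM in control libraries. In counts this was 5442 and 5286 at 48 h with the shFabp7 and the control partner, against 78 and 109 at 24 h. Every member had counts in every library at 48 h, the lowest being 22 counts (0.648 CPM, Iqcf5 with the control partner). No member had more than 6 counts in any library at 24 h. The ratio of 48 h to 24 h, from summed counts over summed library totals, ran with the control partner from 11.5 (Kcnmb1) to 287 (Dthd1) over the 21 genes with a count at 24 h. With the shFabp7 partner it ran from 19.997 (Septin3) to 365 (Fbxo2) over the 19 genes with a count at 24 h. The ratio of Fbxo2 rests on 1 count at 24 h and has an exact 95% interval of 65.1 to 14440 (counting error only, as for all intervals here). In a bulk sample, a gene read in fewer cells and a gene with less RNA per cell cannot be told apart.

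**Figure D1:**
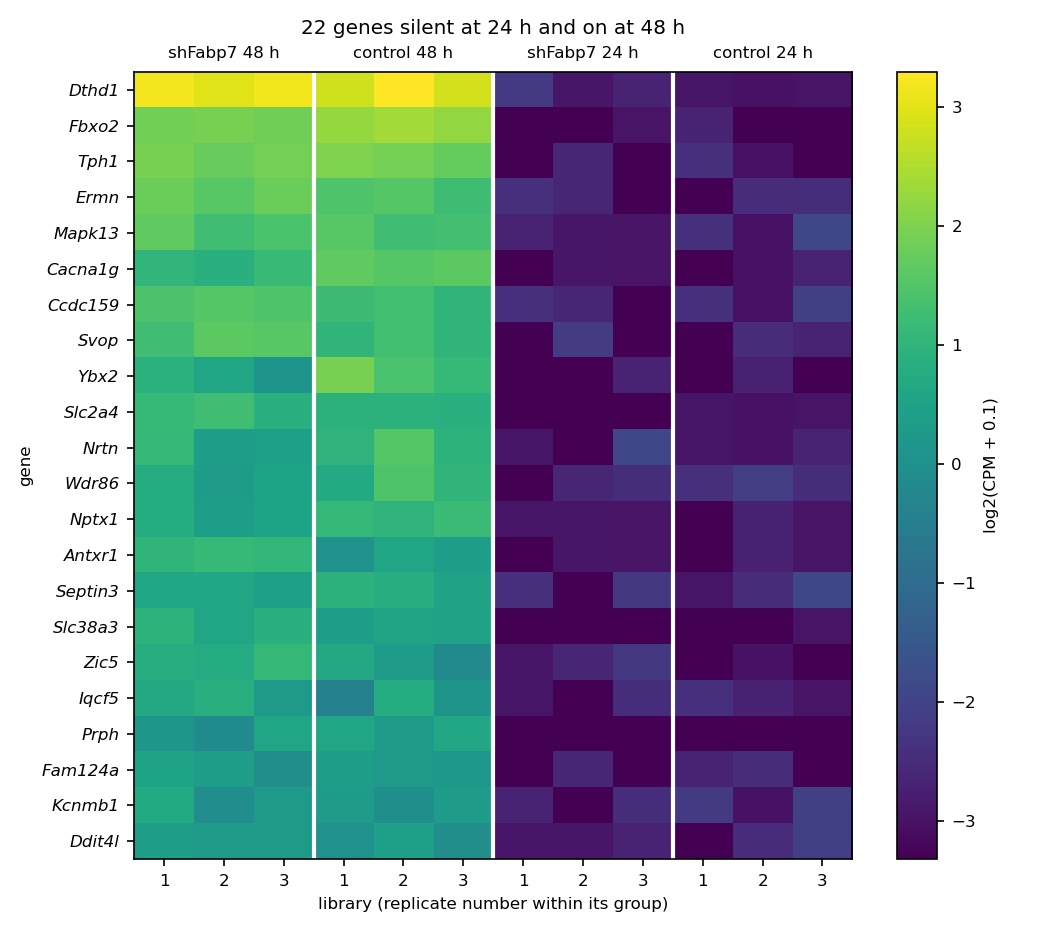
Level of the 22 genes in the 12 libraries, as log2(CPM + 0.1), with genes down the page by mean level at 48 h and libraries across it. Every gene is brighter in the 6 libraries at 48 h (at least 22 counts) than in the 6 at 24 h (at most 6 counts), which is how the genes were chosen, and Dthd1 is the brightest.

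The limits were applied to group means, so single libraries cross them. At 48 h, 14 of the 22 genes were at 1 CPM or more in every library, and at 24 h, 12 were below 0.1 CPM in every library. At 24 h, every member had under 10 counts over the 3 shFabp7 libraries, and 18 of the 22 had under 10 over the 3 control libraries. The members nearest to the limit at 24 h were Wdr86 (a higher group mean of 0.099965 CPM), Kcnmb1 (0.0935) and Mapk13 (0.0928), and the nearest genes outside it were Fam171a2 (0.100459), Tpm2 (0.105) and Grhl3 (0.106). At the limit of 48 h, Ddit4l (a lower group mean of 1.00 CPM), Kcnmb1 (1.05) and Iqcf5 (1.07) lay just inside, and Akr1b8 (0.989), Hmx3 (0.952) and Grin2c (0.923) just outside. The edge of the set is therefore a matter of a few counts.

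**Figure D2:**
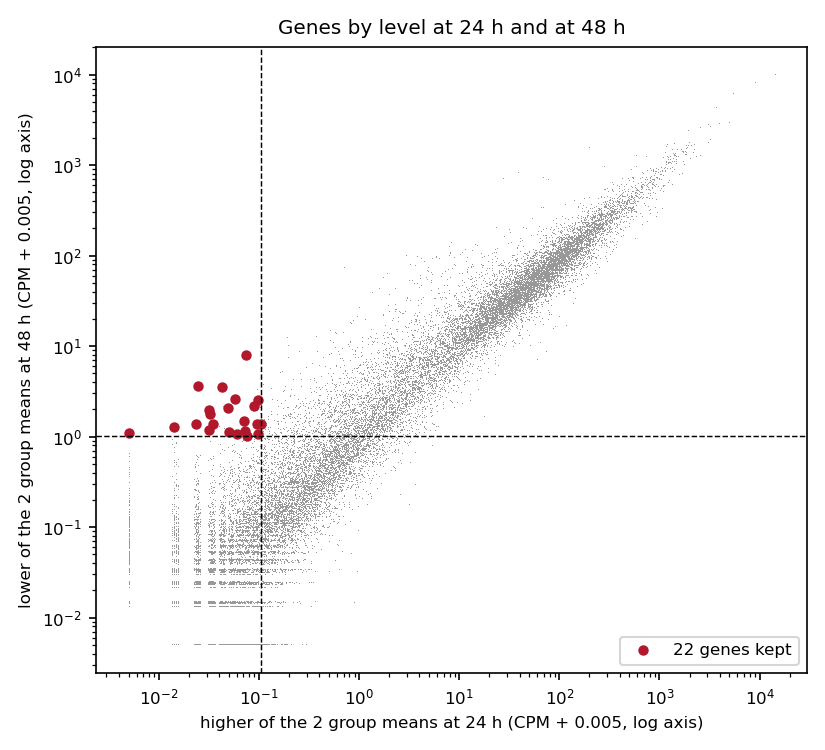
Each point is a gene, with the higher of its 2 group means at 24 h on the x axis and the lower of its 2 group means at 48 h on the y axis (CPM + 0.005, both axes log). Dashed lines mark the limits of 0.1 and 1 CPM, and the 22 genes kept are red. Few points lie far above the diagonal at low x, and the genes kept reach down to both limits.

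Among enzymes and signalling proteins, Dthd1, which encodes a death domain protein, was the most abundant of the 22, also per kilobase of exon (3.37 CPM per kb at 48 h, averaged over both partners). It was at 8.88, 7.75 and 8.72 CPM with the shFabp7 partner and 6.89, 9.70 and 7.08 CPM with the control partner at 48 h, against 7 counts in all with the shFabp7 partner and 3 counts with the control partner at 24 h. The groups at 48 h overlapped. The ratio of 48 h to 24 h was 123 with the shFabp7 partner (59.5 to 307) and 287 with the control partner (97.9 to 1395). Tph1, the rate-limiting enzyme of serotonin synthesis outside the brain, was at 3.72, 3.27 and 3.68 CPM with the shFabp7 partner and 3.91, 3.64 and 3.21 CPM with the control partner at 48 h, and had 2 and 4 counts at 24 h. These groups also overlapped. Its ratio of 48 h to 24 h was 181 (49.8 to 1499) with the shFabp7 partner and 97.6 (37.8 to 360) with the control partner. Tph2, the enzyme used by brain neurons, had 1 count at 48 h with the shFabp7 partner and 0 in the other groups.

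Mapk13, a p38 stress kinase, averaged 2.65 ± 0.388 CPM with the shFabp7 partner and 2.52 ± 0.291 CPM with the control partner at 48 h (SD, n = 3 each, as for every such value), and had 4 and 10 counts at 24 h. The other p38 kinases were not off at 24 h: Mapk14 was at 115 and 118 CPM at 48 h and at 115 and 119 CPM at 24 h with the shFabp7 and the control partner. Fbxo2 encodes a ubiquitin ligase subunit that binds sugar chains on glycoproteins. It was at 3.57, 3.70 and 3.51 CPM with the shFabp7 partner, all below the 4.68, 5.07 and 4.53 CPM with the control partner, and had 1 and 2 counts at 24 h. Ddit4l, an inhibitor of the growth regulator mTORC1, was at 1.15 ± 0.0501 CPM with the shFabp7 partner and 1.00 ± 0.207 CPM with the control partner at 48 h, and had 4 and 8 counts at 24 h. Its paralog Ddit4 was already at 73.0 and 72.2 CPM at 24 h.

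The set holds 2 nutrient transporters and 2 ion channel subunits. Slc2a4, the insulin-responsive glucose transporter GLUT4 of muscle and fat, was at 2.07, 2.29 and 1.74 CPM with the shFabp7 partner and 1.7955, 1.804 and 1.74 CPM with the control partner at 48 h. It had 0 counts in the 3 shFabp7 libraries at 24 h and 3 with the control partner at 24 h, which makes it at least 68.8-fold higher at 48 h with the shFabp7 partner (against 3 counts over the group) and 64.7-fold with the control partner (21.8 to 317). Slc38a3, a glutamine transporter known from liver, kidney and brain, was at 1.82, 1.39 and 1.74 CPM with the shFabp7 partner and 1.21, 1.35 and 1.30 CPM with the control partner at 48 h, against 0 counts and 1 count at 24 h. It was at least 56.2-fold higher at 48 h with the shFabp7 partner. Other members of both families were already read at 24 h. Slc2a1 was at 89.0 and 86.1 CPM, Slc2a3 at 37.6 and 43.0 CPM and Slc38a1 at 325 and 328 CPM at 24 h with the shFabp7 and the control partner.

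Cacna1g, the pore of the calcium channel Cav3.1, which opens near the resting potential, was at 1.94, 1.74 and 2.14 CPM with the shFabp7 partner and 3.09, 2.85 and 3.01 CPM with the control partner at 48 h, and had 2 and 3 counts at 24 h. The groups at 48 h did not overlap, and the shFabp7 libraries were lower. Of the related channels, Cacna1i was at 0.828 and 0.821 CPM at 48 h and at 0.0679 and 0.165 CPM at 24 h. Kcnmb1, the accessory subunit of the large calcium-activated potassium channel of smooth muscle, was at 1.17 ± 0.359 CPM with the shFabp7 partner and 1.05 ± 0.154 CPM with the control partner at 48 h, and had 5 and 10 counts at 24 h. The pore it is known to bind, Kcnma1, had 3 and 4 counts at 48 h and 2 and 1 counts at 24 h. Kcnmb1 lies within the body of Kcnip1 in the annotation used.

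Among secreted and surface proteins, Nrtn encodes neurturin, a growth factor that acts through Gfra2 and Ret. It was at 2.02, 1.19 and 1.2545 CPM with the shFabp7 partner and 1.88, 2.85 and 1.82 CPM with the control partner at 48 h, and the groups overlapped. At 24 h it had 7 and 4 counts. The receptor genes were read at both times, Ret at 1.49 and 2.06 CPM at 48 h and 2.02 and 3.09 CPM at 24 h, and Gfra2 at 5.89 and 5.30 CPM at 48 h and 4.97 and 4.36 CPM at 24 h. The other ligands of the family, Gdnf, Artn and Pspn, had at most 5 counts in any group. Nptx1, a neuronal pentraxin that gathers glutamate receptors at synapses, was at 1.62, 1.19 and 1.34 CPM with the shFabp7 partner, below the 2.00, 1.89 and 2.16 CPM with the control partner at 48 h, and had 3 counts in each group at 24 h. Antxr1, a receptor for anthrax toxin that binds collagen, was at 1.92, 2.05 and 1.97 CPM with the shFabp7 partner, above the 0.942, 1.41 and 1.19 CPM with the control partner at 48 h, and had 2 and 3 counts at 24 h. Its paralog Antxr2 was at 16.1 and 18.97 CPM at 48 h and 18.7 and 21.6 CPM at 24 h.

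Of the cytoskeletal genes, Prph, the intermediate filament peripherin of peripheral neurons, was the only member with 0 counts in all 6 libraries at 24 h. At 48 h it was at 1.03, 0.810 and 1.40 CPM with the shFabp7 partner and 1.41, 1.16 and 1.44 CPM with the control partner, at least 36.5-fold and 48.6-fold higher than 3 counts over the group. Septin3, a neuronal septin, was at 1.37 ± 0.129 CPM with the shFabp7 partner and 1.58 ± 0.253 CPM with the control partner at 48 h, and had 7 and 10 counts at 24 h. Ermn, which encodes an actin-binding protein of oligodendrocytes, was at 3.37, 2.86 and 3.42 CPM with the shFabp7 partner and 2.65, 2.82 and 2.27 CPM with the control partner at 48 h, with 5 and 6 counts at 24 h. Svop, a transporter-like protein of synaptic vesicles, was at 2.71 ± 0.368 CPM with the shFabp7 partner and 2.05 ± 0.248 CPM with the control partner at 48 h, and had 4 and 5 counts at 24 h. In the annotation used, exons of Svop overlap Usp30 on the opposite strand, and Usp30 was at 23.6 and 24.9 CPM at 48 h and 26.3 and 26.4 CPM at 24 h.

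The nucleic acid binding members are Ybx2, a germ cell protein that binds and stores messenger RNA, and Zic5, a zinc finger transcription factor of neural development. Ybx2 was at 1.77, 1.42 and 0.969 CPM with the shFabp7 partner and 3.71, 2.51 and 2.05 CPM with the control partner at 48 h, against 2 counts in each group at 24 h. All 3 shFabp7 libraries were lower, and the spread within each group was wide (SD 29.0% and 31.2% of the mean, where counting error alone gives 13.9% and 10.2%). The common Y-box genes were high at both times, Ybx1 at 1154 and 844 CPM and Ybx3 at 357 and 219 CPM at 48 h with the shFabp7 and the control partner. Zic5 was at 1.65, 1.59 and 2.02 CPM with the shFabp7 partner and 1.5012, 1.13 and 0.801 CPM with the control partner at 48 h, all shFabp7 libraries being higher. It had 7 counts with the shFabp7 partner at 24 h and 1 count with the control partner.

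The remaining 4 genes are known mainly by their protein domains or family. Ccdc159, a coiled-coil protein, was at 2.63, 2.81 and 2.65 CPM with the shFabp7 partner and 2.24, 2.34 and 1.91 CPM with the control partner at 48 h, and had 5 and 9 counts at 24 h. Wdr86, a WD repeat protein, averaged 1.37 ± 0.235 CPM and 2.04 ± 0.557 CPM with the shFabp7 and the control partner at 48 h, Iqcf5, an IQ motif protein, 1.43 ± 0.318 CPM and 1.07 ± 0.488 CPM, and Fam124a 1.13 ± 0.247 CPM and 1.11 ± 0.0641 CPM. At 24 h Wdr86 had 5 and 11 counts, Iqcf5 4 and 6 counts and Fam124a 2 and 5 counts with the shFabp7 and the control partner. Per kilobase of exon, Fbxo2 (3.24 CPM per kb) and the short gene Iqcf5 (2.27) followed Dthd1, and Antxr1 was lowest at 0.166. Exons of 5 members overlap another gene on the opposite strand in the annotation used: Ccdc159 with Tmem205, Ermn with Galnt5, Svop with Usp30, Fam124a with Gm4131 and Antxr1 with n-R5s164. No source used here says whether counting used the strand, and the part of the overlapping genes in the counts of these 5 members was not tested.

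**Figure D3:**
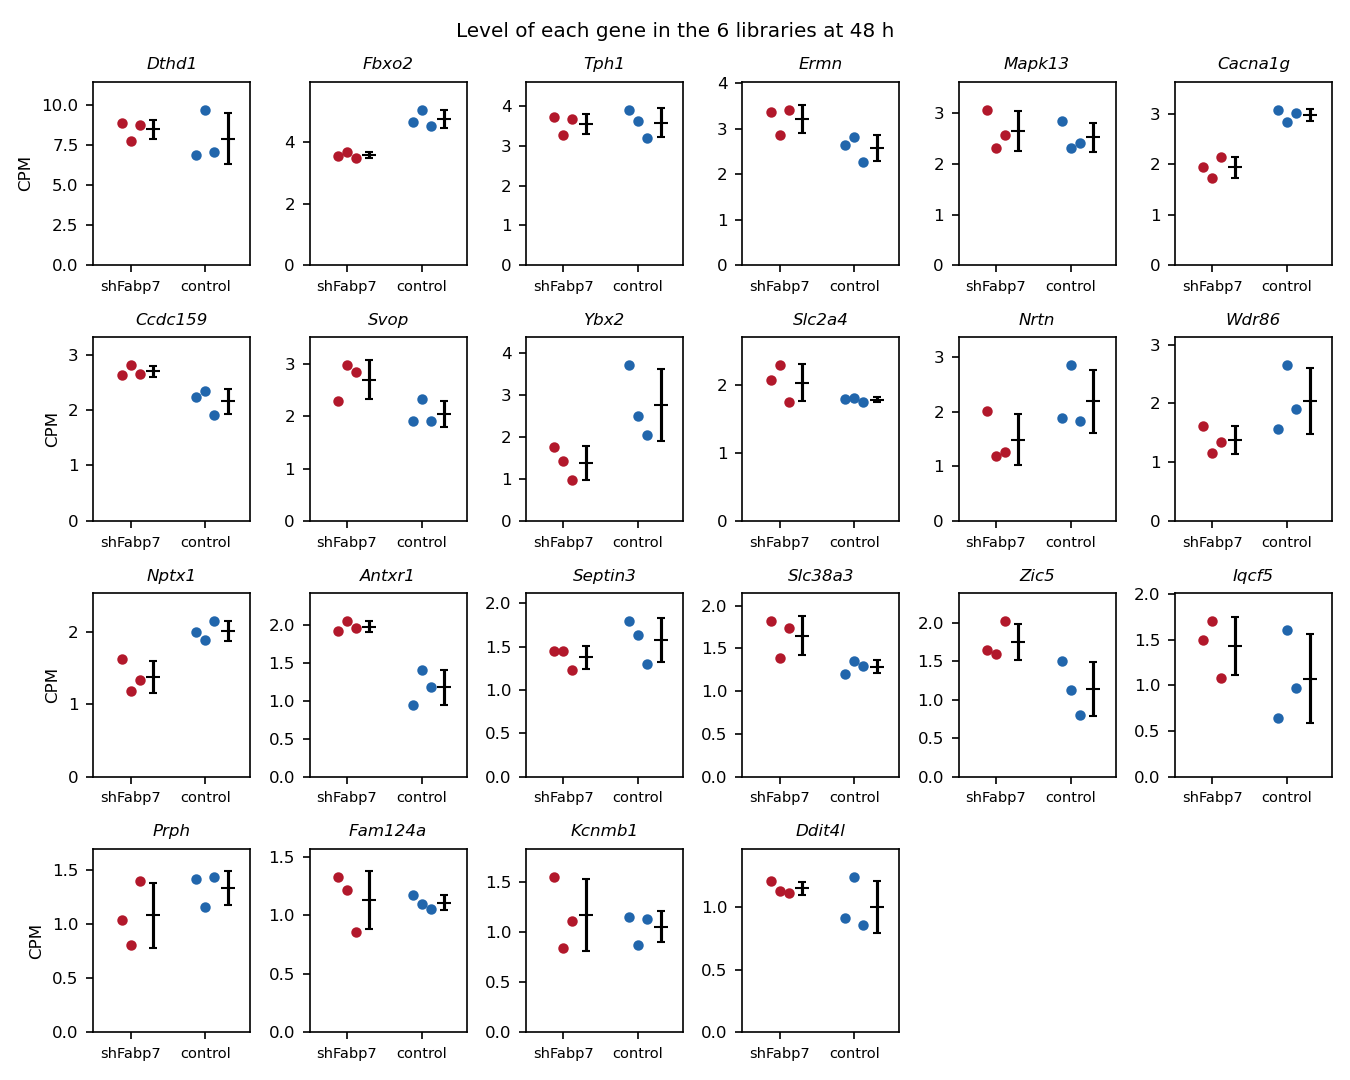
Level of each of the 22 genes in the 6 libraries at 48 h (CPM, 1 panel per gene with its own axis from 0), with the shFabp7 partner left of the control partner. Points are libraries and bars are the mean ± SD (n = 3). Antxr1 and Zic5 sit higher with the shFabp7 partner and Ybx2, Cacna1g, Fbxo2 and Nptx1 lower, while Dthd1 and Tph1 overlap.

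The partner difference at 48 h asks how T cells differed with a partner carrying the hairpin against Fabp7. The rule set no direction for it, but it asked for 1 CPM in both groups at 48 h and so kept out genes near that limit with a large partner difference. With the shFabp7 partner, Antxr1 was higher, by 0.83 ± 0.28 on the log2 scale (adjusted p = 0.0206), and Ybx2 was lower, with a log2 fold change of -0.90 ± 0.29 (adjusted p = 0.016, both from edgeR's quasi-likelihood test with adjustment over all 16945 genes tested, ± SE, higher or lower in 3 of 3 libraries). The other 20 members did not pass. Over all genes tested, 31.6% passed, 19.9% by being higher and 11.6% by being lower with the shFabp7 partner (3380 and 1972 genes with TMM scaling, against 2157 and 3168 with library totals), and among the 3479 genes at 1 to 10 CPM in both groups at 48 h 17.7% passed. Nothing is read from the members' 2 of 22 against these shares, since the rule used the levels at 48 h. The members' estimates were also less precise, with a median SE of 0.28 against 0.19 for genes at 1 to 10 CPM.

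The calls for Antxr1 and Ybx2 were lost without single libraries. Without shFabp7 replicate 3 neither passed (adjusted p = 0.0566 for Antxr1 and 0.11 for Ybx2), nor without control replicate 1 (0.0888 and 0.161). Antxr1 was also lost when control replicate 3 (adjusted p = 0.0576) or shFabp7 replicate 2 (0.0713) was left out. Both kept their direction in all 12 alternative fits.

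Of the members that missed the threshold, Cacna1g had a log2 fold change of -0.54 ± 0.23 (adjusted p = 0.0703) and Zic5 one of 0.70 ± 0.30 (adjusted p = 0.0706), each without overlap between the groups. When the 48 h libraries were fitted alone, both passed, with adjusted p = 0.0174 and 0.0425. Each passed in only 2 of the 12 alternative fits, and the highest adjusted p in edgeR's test was 0.206 for Cacna1g and 0.288 for Zic5. On CPM by library totals, 5 members were higher in every shFabp7 library than in any control library (Ermn, Ccdc159, Antxr1, Slc38a3 and Zic5), where 17.7% of all tested genes were. A further 4 were lower in every one (Fbxo2, Cacna1g, Ybx2 and Nptx1), where 26.6% of all tested genes were. Together 9 of 22 did not overlap, near the 44.2% of all tested genes.

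The median log2 fold change was 0.17 over the 22 members, -0.07 over the genes at 1 to 10 CPM and 0.01 over all tested genes. The median size without sign was 0.40 for members, 0.23 for genes at 1 to 10 CPM and 0.21 for all tested genes, and it grows with the SE, which was larger for the members. Of the 22, 14 were above 0 and 8 below. The members highest in CPM, Dthd1 (0.19 ± 0.14, adjusted p = 0.337), Fbxo2 (-0.32 ± 0.19, adjusted p = 0.198) and Tph1 (0.07 ± 0.21, adjusted p = 0.835), gave no call. A p that misses the threshold does not show that the levels were alike. The estimates for Tph1, Fam124a and Kcnmb1 changed sign in at least 1 alternative fit.

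**Figure D4:**
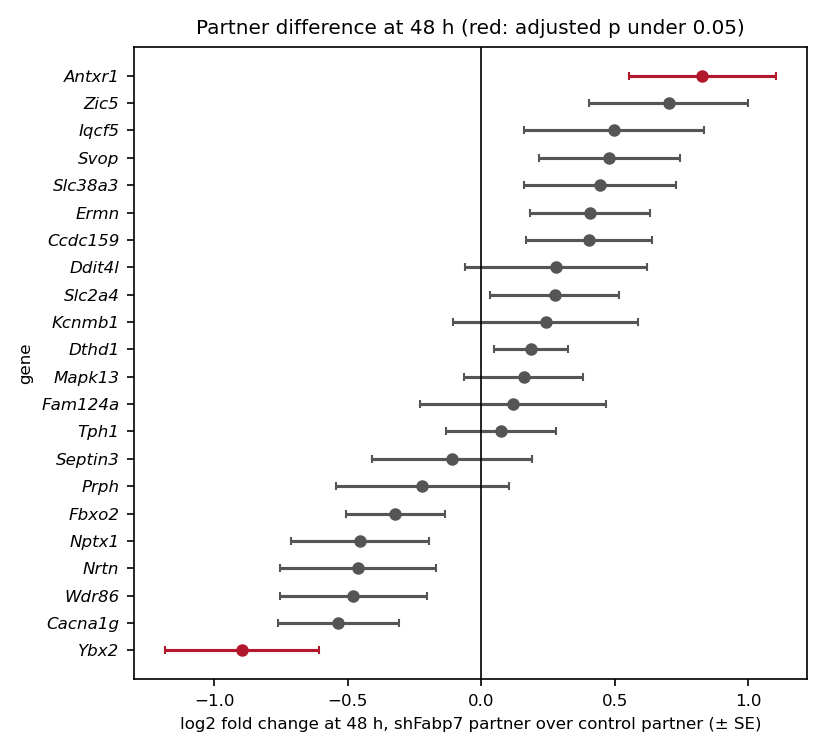
Log2 fold change at 48 h of each of the 22 genes, shFabp7 over control partner, ± SE from edgeR's fit of all 12 libraries. Antxr1 (0.83) and Ybx2 (-0.90), in red, pass an adjusted p of 0.05, and the other 20 estimates lie between them.

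At 24 h the rule held every member to 0 to 11 counts per group, and the members entered the fit only through their counts at 48 h, so nothing is read from their calls at 24 h or from the change between the times. For the partner difference at 24 h, 0 of 22 members passed in edgeR's test (10.9% of all tested genes). At an unadjusted p under 0.05 there were 2 (Slc2a4 and Zic5), and DESeq2 gave 0 calls and 1 at an unadjusted p under 0.05. For the change of the partner difference between the times, 0 of 22 passed in edgeR (5.6% of all tested genes), with 1 (Slc2a4) at an unadjusted p under 0.05, and DESeq2 gave 0 at either threshold.

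The nearest tested genes on each side of the members were examined for the change over time, by their order in RefSeq names on GRCm38. Ybx2 and Slc2a4 are next to each other and both members. Of the 42 neighbours that are not members, 21 were higher in all 6 libraries at 48 h than in any at 24 h, and 8 were lower in all. Among all tested genes 34.5% were higher and 15.6% lower in this sense, all on CPM by library totals. Fbxo44, which lies beside Fbxo2 and encodes a related F-box protein, was at 3.13 ± 0.246 CPM with the shFabp7 partner and 4.09 ± 0.154 CPM with the control partner at 48 h, against 0.169 and 0.167 CPM at 24 h. Sema3f, a guidance factor beside Slc38a3, was at 15.1 and 18.1 CPM at 48 h and 1.064 and 1.32 CPM at 24 h. Both neighbours of Ccdc159 were higher at 48 h, Tmem205 at 2.66 and 3.88 CPM against 0.391 and 0.685 CPM, and Plppr2 at 10.9 and 10.9 CPM against 1.51 and 1.43 CPM. Tmem205 shares exon sequence with Ccdc159 on the opposite strand, and its part in the Ccdc159 counts was not tested.

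Zic2 lies beside Zic5. It was at 0.952 ± 0.157 CPM with the shFabp7 partner and 0.460 ± 0.249 CPM with the control partner at 48 h, and at 0.0192 and 0.0357 CPM at 24 h. Its log2 fold change at 48 h was 1.12 ± 0.43 (edgeR adjusted p = 0.0437), but 4 of 12 alternatives kept the call, the adjusted p ranged from 0.0254 to 0.213, and leaving out any 1 library at 48 h other than control replicate 2 ended it. Other members had neighbours that did not move with them. Eif5a, beside Ybx2, was at 1107 and 804 CPM at 48 h and 1684 and 1425 CPM at 24 h, and Rsad1, beside Cacna1g, at 8.75 and 9.16 CPM at 48 h and 20.9 and 19.8 CPM at 24 h.

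**Figure D5:**
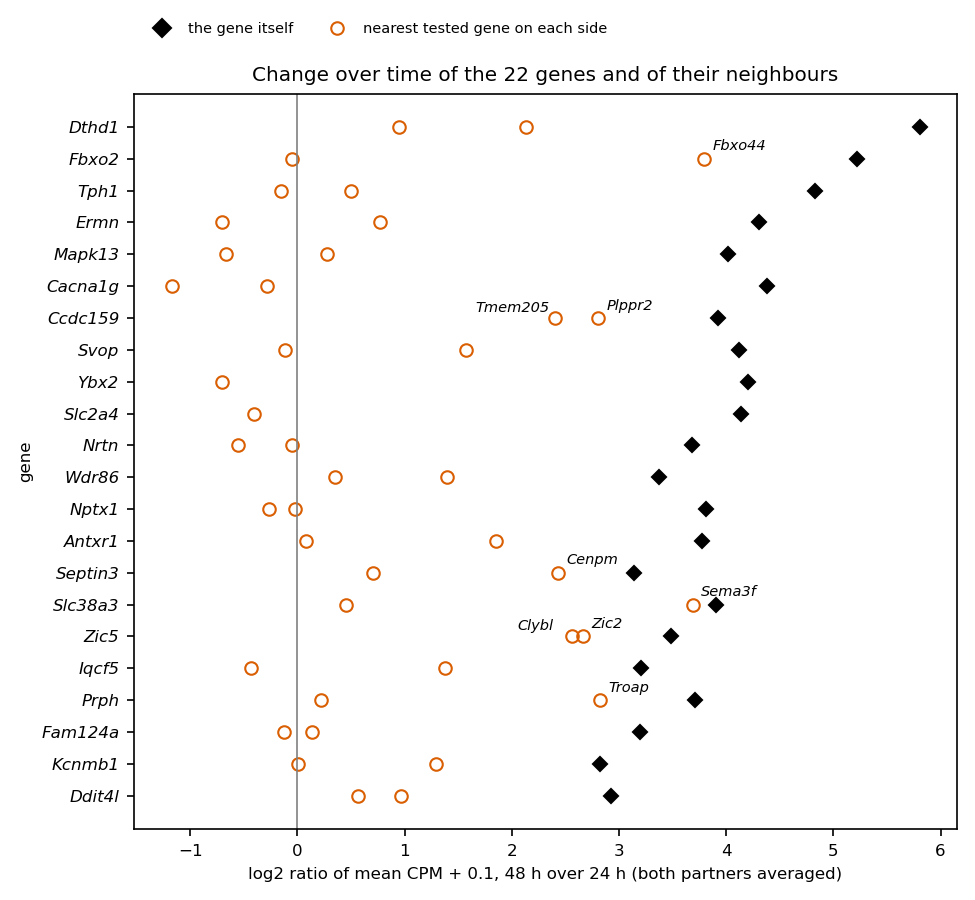
Change over time of each of the 22 genes (diamonds) and of the nearest tested gene on each side (circles), as the log2 ratio of mean CPM + 0.1 at 48 h over 24 h. Fbxo44 and Sema3f are the neighbours farthest to the right, most others lie between -1 and 3, and Ybx2 and Slc2a4 have 1 circle each because they neighbour each other.

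Lists of related genes were counted in the partner comparison at 48 h. The solute carriers, which hold Slc2a4 and Slc38a3, had 63 of 253 tested genes (24.9%) higher and 32 (12.6%) lower with the shFabp7 partner, beside 19.9% and 11.6% of all tested genes. Among them Slc2a1, the main glucose transporter of many cells, was higher with the shFabp7 partner (113 CPM, against 84.9 CPM with the control partner, log2 fold change 0.50, adjusted p = 4.6e-08). The potassium channels, which hold Kcnmb1, had 6 of 32 tested genes (18.8%) higher and 9 (28.1%) lower, beside the same shares of all tested genes. The balance of higher and lower calls turns with library totals as scaling, as given above. No other list of a gene family that was counted holds a member. No list of calcium channels, the family of Cacna1g, was counted, nor any list of pathways.

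Since many members are known from other cell types, 19 marker lists were summed in every library, and none holds a member. In 8 of them the sum was higher in all libraries at 48 h than in any at 24 h, and in 1, plasma cells, it was lower. These sums and the counts of genes below are on CPM by library totals. The TMM factors were 0.926 to 0.963 at 24 h and 1.02 to 1.10 at 48 h. TMM scaling would therefore lower the 48 h values against those at 24 h, and the lists were not counted again with it. A sum can hide single genes. Of 10 dendritic cell genes, 4 (Zbtb46, Itgax, Batf3 and Wdfy4) were higher in all libraries at 48 h and 1 was lower in all, while their sum, mostly Ccr7, was not higher. Of 14 monocyte and macrophage genes, 2 (Itgam and Cd68) were higher in all and 1 lower, and their sum was not higher. Germ line markers, the cell type Ybx2 is known from, summed to 10.2 to 10.8 CPM with the shFabp7 partner and 9.76 to 11.5 CPM with the control partner at 48 h, and to 3.20 to 4.38 CPM and 2.98 to 3.94 CPM at 24 h. Most of that was Piwil2 and Brdt, the 2 of the list's 14 genes that were higher in all libraries at 48 h than in any at 24 h. Ddx4 had 22 and 8 counts at 48 h with the shFabp7 and the control partner, against 3 and 1 at 24 h, and Dazl had 6 and 10, against 2 and 2. Tex11 had 85 and 81 counts at 48 h, against 56 and 46 at 24 h. Sycp1, Sycp3, Tdrd1, Stra8 and Hormad1 had at most 7 counts in any group, and Mael, Tex101, Dppa3 and Asz1 had 0 counts in every group. Markers of mast cells and basophils, which use Tph1, summed to 16.2 to 17.8 CPM with the shFabp7 partner and 19.2 to 25.4 CPM with the control partner at 48 h, and to 10.0 to 11.6 CPM and 11.7 to 15.4 CPM at 24 h, led by Gata2 and Hdc. Of the 14 genes of the list, 4 were higher in all libraries at 48 h than in any at 24 h (Fcer1a, Mcpt1, Hdc and Gata2), 0 were lower in all, and 1 (Mcpt4) had 0 counts everywhere. Fcer1a, a subunit of the IgE receptor, had 157 and 169 counts at 48 h with the shFabp7 and the control partner, against 15 and 19 at 24 h. Their part in the levels of Ybx2 and Tph1 was not tested.

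In the other lists that were higher at 48 h, 1 or a few genes gave most of the sum. Platelet markers summed to 259 to 300 CPM at 48 h and 86.0 to 109 CPM at 24 h, of which Itgb3 gave 276 and 254 CPM at 48 h. Of the 7 platelet genes, 4 were higher in all libraries at 48 h than in any at 24 h (Ppbp, Itga2b, Itgb3 and Treml1). In this list 0 were lower in all. Ppbp had 54 and 66 counts at 48 h with the shFabp7 and the control partner, against 1 and 14 at 24 h. Fibroblast markers summed to 692 to 838 CPM at 48 h and 400 to 435 CPM at 24 h, nearly all from Thy1, which T cells also express. Of the 13 fibroblast genes, 4 were higher in all libraries at 48 h (Col1a1, Col1a2, Fn1 and Thy1) and 1 (Postn) had 0 counts. Col1a1 had 215 and 251 counts at 48 h with the shFabp7 and the control partner, against 56 and 41 at 24 h. NK cell markers summed to 229 to 249 CPM at 48 h and 171 to 200.2 CPM at 24 h, mostly from Eomes and Prf1. Of the 11 NK cell genes, 1 (Prf1) was higher in all libraries at 48 h than in any at 24 h, and 0 were lower in all. Eomes averaged 144 and 163 CPM at 48 h with the shFabp7 and the control partner, against 139 and 148 CPM at 24 h. B cell markers (22.05 to 27.9 CPM at 48 h and 12.9 to 16.9 CPM at 24 h), erythroid markers (4.73 to 6.71 and 1.14 to 2.59 CPM) and melanocyte markers (3.73 to 5.06 and 1.27 to 2.25 CPM) were low. Higher in all libraries at 48 h were 2 of 10 B cell genes (Cd79b and Pax5), with 1 lower in all. The same held for 2 of 8 erythroid genes (Hbb-bt and Epor) and 2 of 7 melanocyte genes (Pmel and Mitf), with 0 lower in all. Epithelial markers, at 7.41 to 8.59 CPM with the shFabp7 partner and 9.92 to 10.4 CPM with the control partner at 48 h, against 10.2 to 10.8 CPM and 11.7 to 12.8 CPM at 24 h, were not among the lists whose sum was higher at 48 h. Of the 16 epithelial genes, 2 (Ocln and Muc1) were higher in all libraries at 48 h than in any at 24 h, and 1 was lower in all. Whether the members come from T cells or from other cells in the culture was not tested.

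The lists for neurons, oligodendrocytes and for muscle and fat were added after the members were seen. Neuron markers summed to 135 to 143 CPM with the shFabp7 partner and 72.0 to 90.2 CPM with the control partner at 48 h, and to 140 to 152 CPM and 107 to 122 CPM at 24 h. Almost all of it was the neurofilament gene Nefh. Of the 11 genes, 2 (Snap25 and Syp) were higher in all libraries at 48 h than in any at 24 h, Nefl had 0 counts and Rbfox3 at most 1 count in any group. Snap25 had 47 and 43 counts at 48 h with the shFabp7 and the control partner, against 8 and 13 at 24 h. Oligodendrocyte markers, mostly Mbp and Cnp with Mog, Olig1 and Olig2 at 0, summed to 347 to 371 CPM with the shFabp7 partner and 407 to 431 CPM with the control partner at 48 h, and to 423 to 479 CPM and 470 to 511 CPM at 24 h. Neither these nor muscle and fat markers, at most 1.01 CPM in any library with Lep, Cfd and Myog at 0, were higher as a sum in all libraries at 48 h. Of the 10 muscle and fat genes, 0 were higher in all libraries at 48 h than in any at 24 h, and 0 were lower in all. Des had 18 and 9 counts at 48 h with the shFabp7 and the control partner, against 0 and 0 at 24 h. Adipoq had 16 and 24, against 2 and 9, and Ckm 21 and 14, against 13 and 10. Acta1 had 5 and 13, against 8 and 7, and Fabp4 2 and 0, against 0 and 5. The part of these cell types in the members' levels was not tested.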

How the data were processed

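The deposited table gives the authors' raw read counts per gene symbol in 12 libraries of T cells. The notes of the submitters on processing name HTSeq 0.6.1p1, TopHat2 2.0.13, CASAVA 1.8.2 and the build GRCm39, and no source used here gives settings, strand mode or annotation release. The reference at hand was GRCm38, used only for gene order, exon lengths, overlaps (GENCODE M21) and promoter windows (RefSeq). CPM were computed from column totals. Differences between partners were tested with edgeR 4.0.16 in R 4.3.3 (quasi-likelihood, robust, TMM scaling, filterByExpr with a minimum count of 10 and a minimum total of 15), with all 12 libraries in 1 fit and Benjamini-Hochberg adjustment over the 16945 genes left, at a threshold of 0.05. All 22 members passed that filter on their counts at 48 h. Alternatives were DESeq2 1.42.0, RLE scaling, library totals as scaling, no filter, a replicate block, the compared groups alone and leaving out each library. The code was tested on simulated counts. A floor of 3 counts over the group and exact 95% intervals cover counting error only. The members and gene lists were chosen with earlier results of these data known, and 3 marker lists and the related genes were added after the members were seen. All 22 members are named, with the genes nearest to the limits. The neighbours, related genes and markers that are named were chosen after their values were seen. Some related genes, 1 promoter window and 1 motif are not reported here.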

Additional observations from a re-analysis of the deposited data

How the results depend on the processing

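The number of genes that met the rule depended on its limits. It was 11 with a limit of 0.05 CPM and 82 with 0.2 CPM at 24 h, 81 with 0.5 CPM and 7 with 2 CPM at 48 h, and 7 with the limits applied to every library, against 22 as reported. With the same limits on TMM-scaled CPM it was 18. Leaving out 1 library gave 20 to 27 genes, which shared 19 to 22 with the 22. The members that passed for the partner at 48 h numbered 2 in the main test, 4 with the compared groups alone, 3 with library totals as scaling, and 0 to 2 without 1 library. Of 264 estimates for the 22 members under the 12 alternatives, 250 kept their sign and side of the threshold, 4 passed newly, 6 passed no longer and 4 changed sign. The log2 fold change of Tph1 was -0.011 with library totals and -0.0064 to 0.15 without 1 library, that of Fam124a -0.0095 to 0.28 and that of Kcnmb1 -0.019 to 0.42 without 1 library. The cause was not tested.

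Over all genes, leaving out 1 library gave 4300 to 5454 calls at 48 h, against 5352 in the main test, 949 to 2525 at 24 h, against 1842, and 319 to 1680 for the change between the times, against 949. At 48 h, TMM scaling gave 3380 genes higher and 1972 lower with the shFabp7 partner, and library totals gave 2157 and 3168. At 24 h, TMM gave 1054 and 788, RLE 1581 and 619, DESeq2 1813 and 680 and library totals 604 and 1214. Same-numbered shFabp7 and control libraries of the same time did not deviate together (correlations of -0.067 to -0.0022 at 48 h and -0.036 to -0.024 at 24 h). The numbers were therefore not taken as pairs of partners. Same-numbered libraries of different times were not compared. With the number as a replicate block there were 5195 calls at 48 h, 1777 at 24 h and 862 for the change, and 2 members passed at 48 h. With the 24 h groups fitted alone no member passed the filter. Depth limits the values at 24 h, where 1 count is about 0.03 CPM.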

Other observations

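A further 19 genes were below 0.1 CPM in both groups at 24 h and reached 1 CPM at 48 h with 1 partner and not with the other, 10 with the shFabp7 partner and 9 with the control partner. The rule that set them apart used the partner difference at 48 h, so their tests are a description. Of 18 that were tested, 2 passed in edgeR's test. Pde1a, a phosphodiesterase that degrades cyclic nucleotides, was at 1.26 ± 0.424 CPM with the shFabp7 partner and 0.466 ± 0.107 CPM with the control partner at 48 h (log2 difference 1.52 ± 0.41, adjusted p = 0.0045, and 0.0596 without shFabp7 replicate 3). Slc30a3, a zinc transporter of synaptic vesicles, was at 0.688 ± 0.136 CPM with the shFabp7 partner and 1.77 ± 0.387 CPM with the control partner (log2 fold change -1.28 ± 0.33, adjusted p = 0.0026, passing in all 12 alternatives). Rpl10-ps5, a ribosomal protein pseudogene, met the rule through 1 library, with 209 counts in shFabp7 replicate 2 at 48 h and at most 3 counts in each other library at 48 h.

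Of the 10 genes that met both limits and were left out for their names, Gm44860 was the highest, at 3.26 CPM with the shFabp7 partner and 3.64 CPM with the control partner at 48 h. Gzmf, a granzyme of cytotoxic T cells, was at 1.17 and 1.05 CPM at 48 h and at 0.0673 and 0.0091 CPM at 24 h. H3c8, a histone gene, was at 1.76 and 1.75 CPM at 48 h.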
